A study of Mus musculus with 15 samples.

Results

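The choroid plexus is the vascular tissue in the brain ventricles whose epithelium secretes cerebrospinal fluid and passes hormones, vitamins and ions between blood and that fluid. Its epithelial cells make transthyretin in large amounts, and a piece of plexus left on, or lost from, a dissected brain region can be seen in the RNA of the whole sample. The plexus of the fourth ventricle lies against the cerebellum, and that of the lateral ventricle lies beside the striatum. Described here are 10 genes chosen by symbol as genes of this epithelium, Ttr, Folr1, Kl, Clic6, Sostdc1, Cldn2, Prlr, Slc4a5, Tmem72 and Aqp1. All 10 are among the 26628 genes of the table, and all 10 passed the filter on low values, which left 15213 genes.

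The samples were RNA libraries of whole cerebellum (Ce) and striatum (St) from male mice of the Hsd:ICR strain, at an age of 6 weeks per the labels. The selected line (Hi) had been bred for high voluntary wheel running and the control line (Co) had been bred without selection. The groups were CeCo, CeHi and StCo with 4 samples each and StHi with 3, and the authors had removed 1 StHi sample. Mice of all 4 groups, Co included, had free access to a running wheel in the days before dissection, and only 1 selected and 1 control line were sampled, so that effects of selection and other differences between these lines cannot be told apart. The dissected tissue matched its label by neuronal markers in all 15 samples. Genes of cerebellar granule and Purkinje cells summed to between 343667 and 403152 normalized counts in the Ce and to between 12186 and 16341 in the St, and genes of striatal projection neurons to between 204122 and 283225 in the St and between 14452 and 16584 in the Ce. A normalized count is the fragment count of a gene divided by 1 library-size factor per sample, and 1 fragment was worth 0.841 to 1.30 normalized counts in libraries of 32909390 to 47485535 fragments. Samples are named by group and by the number in their label, which runs from 0.

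The 10 genes varied more between mice of 1 group than nearly any other gene. The SD of log2 values within groups, pooled over the 4 groups, had a median of 1.84 over the 10 genes and of 0.124 over all genes tested. All 10 lay above the 95th percentile of all genes, which was 0.447. Ttr ranked 2 and Tmem72 ranked 3 of the 15213 genes in this spread, and Clic6, with the smallest spread of the 10, ranked 63. In this bulk tissue, fewer plexus cells in a sample and less RNA per plexus cell cannot be told apart.

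Ttr encodes transthyretin, the carrier of thyroxine and of retinol with its binding protein (chromosome 18, 20665280 to 20674321 of GRCm38, plus strand). In CeCo its level was 74572, 921, 109529 and 33930 normalized counts in samples 0 to 3. In CeHi it was 594, 106230, 81975 and 11393. Each line thus held both Ttr-rich and Ttr-poor cerebella, and the highest Ce sample exceeded the lowest 184-fold. In StCo the level was 504, 44.5, 54.6 and 62.2 normalized counts, and in StHi it was 492, 1496 and 14994. StHi 2 was above 3 of the 8 Ce samples and above every other St sample. Between 1033 and 128361 fragments of Ttr were counted in the CeCo samples and between 45 and 408 in the StCo samples, so that counting error was small beside these differences.

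**Figure D1:**
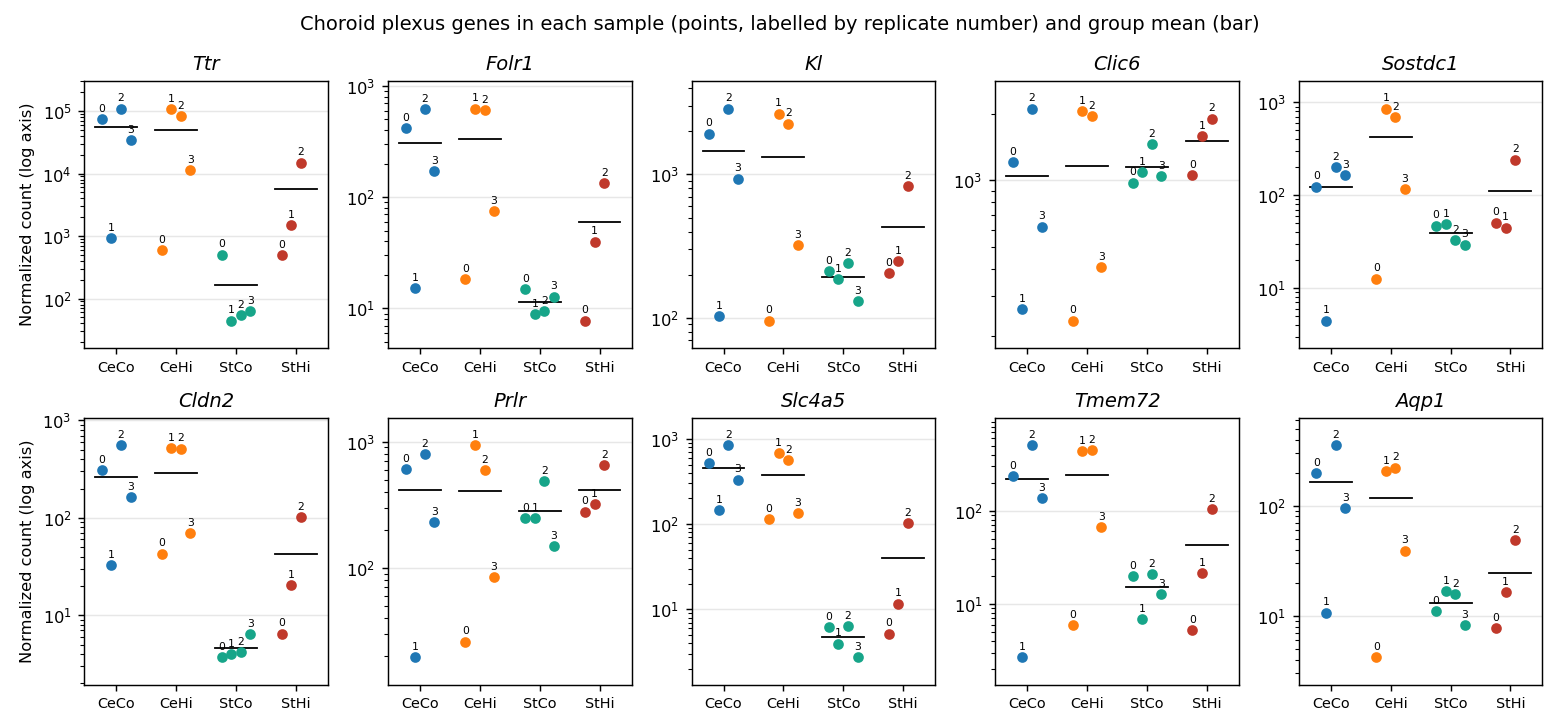
Normalized counts (log axis) of the 10 choroid plexus genes in each of the 15 samples, with points labelled by the number of the sample and bars at the group mean. CeCo 1 and CeHi 0 are at or near the bottom of the Ce in each panel, and StHi 2 is the highest St sample in all 10 panels.

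The same samples were high and low for the other 9 genes. CeCo 2 and CeHi 1 were among the 3 highest Ce samples for all 10 genes, CeHi 0 was among the 2 lowest for all 10 and CeCo 1 for 9 of them. StHi 2 was the highest of the 7 St samples for all 10 genes, and StHi 1 was among the 3 highest for 9. Across the 8 Ce samples the Pearson correlation of log2 values with Ttr was 0.913 to 0.989 for the 9 genes, with a median of 0.980, and Spearman's rho was 0.881 to 1. Across the 7 St samples r was 0.579 to 0.887 and rho 0.214 to 0.786. These are descriptions over 8 and 7 samples in which the genes share a library, and in the Ce they rest in part on 2 samples far below the others. Without CeCo 1 and CeHi 0, r with Ttr over the other 6 Ce samples was 0.962 to 0.999 for 8 of the genes and 0.583 for Sostdc1. Without StCo 1 and StHi 2, r over the other 5 St samples was -0.04 to 0.87.

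**Figure D2:**
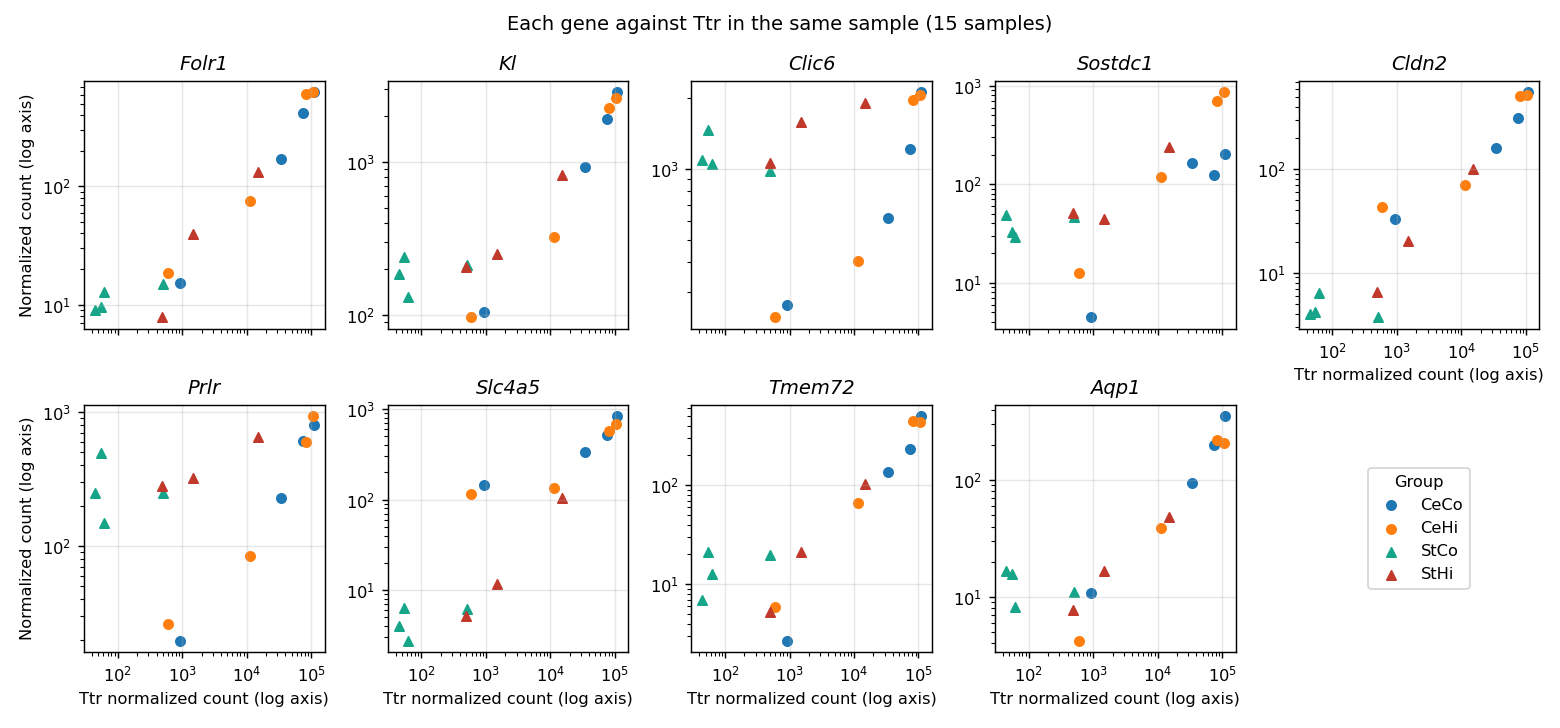
Normalized count of each of the other 9 genes against that of Ttr in the same sample, both on log axes, with Ce samples as circles and St samples as triangles. The Ce samples rise with Ttr in every panel, whereas for Clic6, Prlr, Sostdc1, Kl and Tmem72 the 3 St samples with the least Ttr stay above the Ttr-poor Ce samples.

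Folr1, Kl, Prlr and Sostdc1 act in vitamin and hormone supply and in signalling. Folr1, the folate receptor alpha that carries folate across the plexus epithelium (chromosome 7, 101858331 to 101870788, minus strand), had 419, 15.2, 625 and 172 normalized counts in CeCo. It had 18.5, 627, 606 and 75.0 in CeHi. The St samples had 14.8, 8.90, 9.45 and 12.8 in StCo and 7.78, 39.8 and 133 in StHi. Folr1 overlaps Anapc15 on the opposite strand, and whether strand was used in counting is not given in the sources used here, so the reads of the overlap cannot be assigned to either gene with certainty.

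Kl encodes Klotho, a co-receptor of the hormone FGF23 (chromosome 5, 150952607 to 150993817, plus strand). Its normalized counts were 1922, 103, 2875 and 936 in CeCo and 95.9, 2652, 2256 and 323 in CeHi. They were 212, 186, 240 and 131 in StCo and 206, 250 and 824 in StHi. All 7 St samples were above the lowest Ce sample, although 5 of the 8 Ce samples were above the highest St sample.

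Prlr encodes the prolactin receptor, through which prolactin signals (chromosome 15, 10177238 to 10349180, plus strand). It had 604, 19.6, 796 and 230 normalized counts in CeCo and 26.1, 935, 592 and 84.5 in CeHi. In the St it had 247, 249, 489 and 148 in StCo and 279, 321 and 650 in StHi. The St values thus lay inside the range of the Ce, and their highest exceeded their lowest 4.39-fold where the Ce values spanned 47.7-fold. Prlr overlaps the predicted gene Gm21973 on the same strand, and reads of the overlap may be split between them.

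Sostdc1 encodes a secreted antagonist of BMP and WNT signals (chromosome 12, 36314139 to 36318452, plus strand). Its normalized counts were 124, 4.46, 201 and 163 in CeCo and 12.6, 857, 693 and 117 in CeHi. They were 46.9, 48.5, 32.6 and 29.3 in StCo and 50.6, 44.7 and 241 in StHi. The 2 highest Ce samples, CeHi 1 and CeHi 2, were both of the Hi line, although their Ttr was no higher than in CeCo 2.

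Slc4a5, Aqp1, Clic6 and Cldn2 serve the passage of ions and water, and Tmem72 encodes a membrane protein. Slc4a5, a sodium bicarbonate cotransporter (chromosome 6, 83219828 to 83304945, plus strand), had 516, 145, 842 and 334 normalized counts in CeCo and 114, 679, 567 and 134 in CeHi. It had 6.17, 3.96, 6.30 and 2.74 in StCo and 5.19, 11.7 and 103 in StHi. Slc4a5 was the only one of the 10 genes for which the regions did not overlap, with the lowest Ce sample at 114 and the highest St sample at 103. The share of all genes without such overlap is not given here, but limma called 80.2% of all genes tested between the regions. Slc4a5 also had the smallest range in the Ce, 7.36-fold.

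Aqp1, a water channel (chromosome 6, 55336432 to 55348555, plus strand), had 199, 10.7, 355 and 95.3 normalized counts in CeCo and 4.20, 208, 222 and 39.1 in CeHi. It had 11.1, 16.8, 15.8 and 8.23 in StCo and 7.78, 16.5 and 48.7 in StHi. The value of CeHi 0 rests on 5 fragments.

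Clic6, a chloride intracellular channel protein (chromosome 16, 92485736 to 92541243, plus strand), had 1210, 263, 2105 and 620 normalized counts in CeCo and 234, 2058, 1953 and 406 in CeHi. It had 978, 1088, 1461 and 1046 in StCo and 1056, 1581 and 1897 in StHi. All 7 St samples were above the 4 lowest Ce samples. Clic6 overlaps 2410124H12Rik on the same strand.

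Cldn2, the pore-forming claudin of leaky epithelia (chromosome X, 139800828 to 139811386, plus strand), had 311, 33.0, 555 and 162 normalized counts in CeCo and 42.9, 518, 513 and 69.7 in CeHi. It had 3.70, 3.96, 4.20 and 6.40 in StCo and 6.49, 20.4 and 101 in StHi. Tmem72 (chromosome 6, 116679063 to 116716913, minus strand) had 234, 2.67, 503 and 136 in CeCo and 5.89, 440, 446 and 66.6 in CeHi. It had 19.7, 6.92, 21.0 and 12.8 in StCo and 5.19, 21.4 and 103 in StHi. Tmem72 was at 3 fragments in CeCo 1, and 29.1% of its 50-base windows also occur in other genes, which could split its reads.

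Per kilobase of exon, the order of the median level in the Ce was Ttr, Clic6, Kl, Folr1, Sostdc1, Slc4a5, Cldn2, Aqp1, Prlr and Tmem72. The length was that of all annotated exons of a gene joined, 17.2 kilobases for Tmem72, 15.3 for Prlr, 9.33 for Kl and 1.19 to 5.80 for the others. The order depends on these lengths. Without the division the Ce medians of Prlr (411) and Tmem72 (185) were above those of Aqp1 (147) and Sostdc1 (143). The median was 45743 normalized counts per kilobase for Ttr, 234 for Clic6 and 10.8 for Tmem72. The ranges over the 8 Ce samples of all neighbours in this order overlapped. In the St the order was Ttr, Clic6, Sostdc1, Kl, Prlr, Aqp1, Folr1, Cldn2, Tmem72 and Slc4a5, with 415 per kilobase for Ttr, 278 for Clic6 and 1.06 for Slc4a5. Here the ranges of Clic6 (250 to 485 per kilobase) and Sostdc1 (16.4 to 135) did not overlap, and those of the other neighbours did.

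Because the genes moved together across samples, their promoter windows were read from RefSeq (GRCm38.p6, 250 bases before to 50 bases after the start), which matched 6 of the 10 genes, Kl, Aqp1, Slc4a5, Tmem72, Prlr and Cldn2. The windows were searched on both strands for TAATC, the core recognised by OTX homeobox factors, of which OTX2 is made in the plexus epithelium, and for TATAAA, the core of the TATA box. The letters TAATC occurred in the windows of 2 of the 6 genes, Tmem72 and Kl, and in 22.0% of all 32851 windows of this length. TATAAA occurred in those of Cldn2 and Slc4a5 and in 13.6% of all windows. The 250 bases before the start are shown for Tmem72, which holds a pair of OTX cores 155 and 53 bases before the start (chr6:116716759-116717008, minus strand), and for Cldn2, which holds a TATA box 35 bases before the start (chrX:139800558-139800807, plus strand), with these letters in capitals.
Tmem72: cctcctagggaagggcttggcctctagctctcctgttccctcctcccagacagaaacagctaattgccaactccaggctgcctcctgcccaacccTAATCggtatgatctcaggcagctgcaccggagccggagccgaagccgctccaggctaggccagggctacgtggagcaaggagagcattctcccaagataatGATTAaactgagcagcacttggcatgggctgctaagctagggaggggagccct
Cldn2: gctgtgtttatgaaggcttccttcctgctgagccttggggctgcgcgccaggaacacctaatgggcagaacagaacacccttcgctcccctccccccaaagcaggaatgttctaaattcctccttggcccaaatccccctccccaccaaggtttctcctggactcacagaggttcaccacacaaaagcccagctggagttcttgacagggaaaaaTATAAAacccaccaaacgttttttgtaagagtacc
A match of these letters is a description and not a binding site. The OTX core of Kl begins just after the annotated start and the TATA letters of Slc4a5 lie 127 bases before the start. These starts are those of RefSeq. That of Kl matches the gene position given above, whereas those of Tmem72, Cldn2, Slc4a5 and Aqp1 differ from the ends of theirs. The position of Tmem72 reaches to 116716913, so that its 2 OTX cores lie at that end or inside the gene. The window of Slc4a5 begins at 83237125, inside the gene, which begins at 83219828. Otx2 itself ranged from 429 to 636 normalized counts in the Ce and from 19.5 to 90.2 in the St. In the Ce its r with Ttr was 0.888 at a log2 slope of only 0.06. The Ttr-poor CeCo 1 and CeHi 0 had 429 and 445. The part of OTX2 in the values of the 10 genes was not tested.

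Between the regions, 5 of the 10 genes differed at an FDR-adjusted P-value under 0.05, all higher in the Ce, where 80.2% of all genes tested differed, 40.6% higher and 39.6% lower in the Ce. Ttr had a log2 value of Ce over St of 5.34 ± 1.45 (SE, adjusted P-value 0.00488), with means of 54738 ± 47345 (SD, n = 4) normalized counts in CeCo, 50048 ± 52012 (n = 4) in CeHi, 166 ± 225 (n = 4) in StCo and 5661 ± 8099 (n = 3) in StHi. The log2(fold change) was 4.94 ± 0.64 (1.1e-05) for Slc4a5, which was 30.7-fold higher in the Ce, and 3.87 ± 0.78 (0.000543) for Cldn2. It was 2.91 ± 1.0 (0.0181) for Folr1 and 2.15 ± 0.92 (0.0478) for Aqp1. The call for Aqp1 was lost in 12 of the 15 fits that left out 1 sample, with adjusted P-values of up to 0.115, and that for Folr1 in the fit without StHi 0 (0.0553). The counts of called genes without each sample lay between 3 and 7, with 3 without StHi 0 and 7 without CeCo 1 or without CeHi 0.

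The other 5 genes did not pass. Tmem72 stood at 2.28 ± 1.23 on the log2 scale (adjusted P-value 0.107) and Kl at 1.54 ± 0.88 (0.128), and both passed in the fits without CeCo 1 or without CeHi 0 and in those with edgeR, which called 7 of the 10 and 80.3% of all genes, and DESeq2, which called 8 of the 10 and 80.5% of all genes. Sostdc1 had 0.94, with a 95% confidence interval from -1.33 to 3.21, and it passed with DESeq2 at 1.77 (adjusted P-value 0.0291) and not with edgeR at 1.78 (0.0674). Clic6 and Prlr had negative values, -0.70 (interval -1.94 to 0.54) and -0.65 (-2.72 to 1.42), although that of Prlr turned to 0.26 with edgeR and 0.25 with DESeq2. The median log2(fold change) was 2.21 over the 10 genes and 0.01 over all genes tested.

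**Figure D3:**
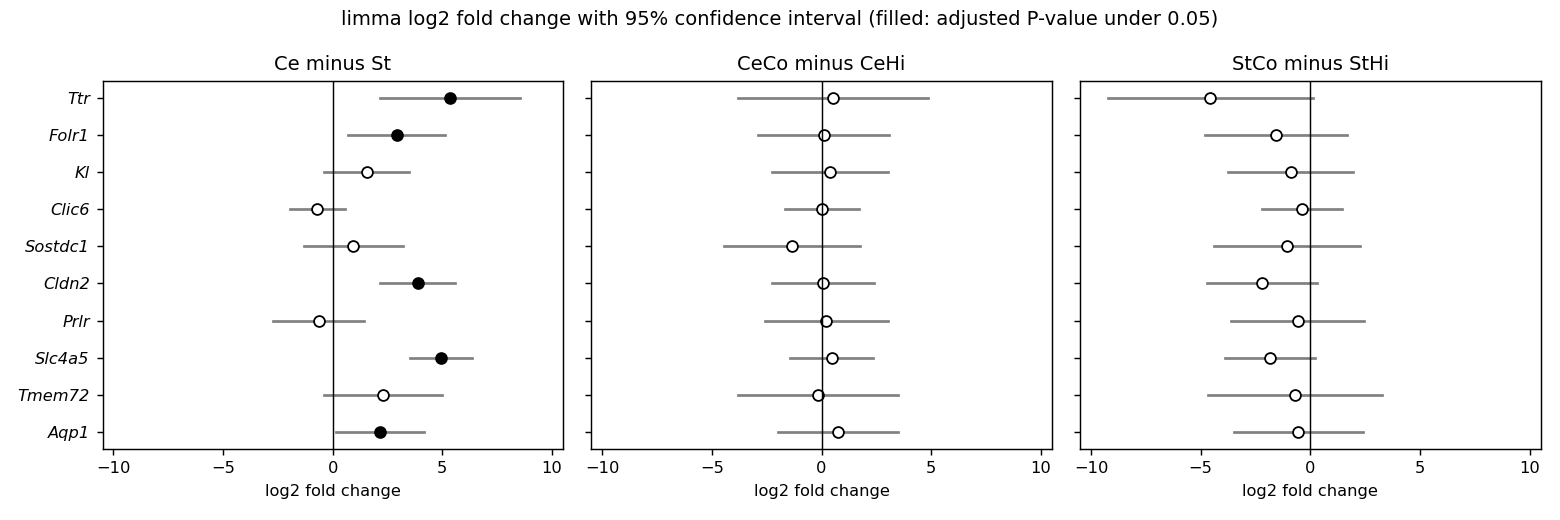
Log2(fold change) of the 10 genes with its 95% confidence interval for Ce minus St, CeCo minus CeHi and StCo minus StHi, with filled points where the FDR-adjusted P-value was under 0.05. Ttr, Folr1, Cldn2, Slc4a5 and Aqp1 are filled for the regions, no gene is filled for the lines, and the interval of Ttr is the widest in each panel.

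The genes parted in samples with little Ttr. The 3 StCo samples with 44.5 to 62.2 normalized counts of Ttr held 1046 to 1461 of Clic6, 148 to 489 of Prlr, 131 to 240 of Kl, 29.3 to 48.5 of Sostdc1 and 6.92 to 21.0 of Tmem72. CeCo 1, with 921 of Ttr, held 263 of Clic6, 19.6 of Prlr, 103 of Kl, 4.46 of Sostdc1 and 2.67 of Tmem72. For these 5 genes the St samples thus held more than the Ttr-poor CeCo 1, at less Ttr. For Slc4a5 and Cldn2 the order was the opposite, with 145 and 33.0 normalized counts in CeCo 1 and at most 6.30 and 6.40 in the 4 StCo samples.

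With log2 Ttr as a covariate, a fit chosen after the values were seen, 7 of the 9 other genes differed between regions, where 71% of all genes did. In this fit the log2 difference of Ce minus St was -3.72 ± 0.68 (SE, adjusted P-value 0.00039) for Prlr, -2.68 ± 0.52 (0.000409) for Sostdc1 and -2.46 ± 0.46 (0.000502) for Clic6. It was -2.14 ± 0.49 (0.00115) for Tmem72 and -1.51 ± 0.47 (0.013) for Kl. These 5 genes were thus fitted as higher in the St, whereas Slc4a5 at 2.84 ± 0.49 (0.000131) and Cldn2 at 1.19 ± 0.51 (0.0469) were fitted as higher in the Ce. Folr1 had -0.68 (interval -1.58 to 0.22) and Aqp1 -1.09 (-2.18 to 0.01). The fit assumed 1 slope on Ttr for both regions, and only 2 of the 7 St samples had as much Ttr as the lowest Ce sample.

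Between the lines in the Ce, 0 of the 10 genes passed with limma, edgeR or DESeq2, where these called 5.94%, 6.26% and 9.13% of all genes tested. At an unadjusted P-value under 0.05 there were 0 of the 10 with limma and 19.7% of all genes. Log2 values of CeCo minus CeHi ranged from -1.35 (interval -4.43 to 1.74) for Sostdc1 to 0.77 (-1.97 to 3.50) for Aqp1, and Ttr had 0.53 (-3.79 to 4.86). Each line held a pair of cerebella with at least 74572 normalized counts of Ttr and 1 with at most 921, and the intervals leave room for differences of several fold in either direction. For all 10 genes the ranges of CeCo and CeHi overlapped.

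In the St, 0 of the 10 genes passed between the lines with limma, where 2.66% of all genes did, and 0 had an unadjusted P-value under 0.05, where 14.1% of all genes had. All 10 had a negative log2(fold change) of StCo minus StHi, from -0.37 (interval -2.19 to 1.45) for Clic6 to -4.55 (-9.22 to 0.12) for Ttr. Without StHi 2 all 10 values were closer to 0 or turned, with -3.17 for Ttr, -1.21 for Cldn2, -0.66 for Slc4a5, -0.62 for Folr1 and between -0.30 and -0.19 for Sostdc1, Kl, Prlr and Clic6, and with 0.35 for Tmem72 and 0.13 for Aqp1. Markers of other cells were summed in the same samples. Pyramidal neuron genes of the cortex and hippocampus, tissue that borders the striatum, summed to between 34349 and 51121 normalized counts in StCo and to 39199, 18136 and 29039 in StHi, and all 6 had a positive log2(fold change) of StCo minus StHi (median 0.61), 0 of them at an adjusted and 5 at an unadjusted P-value under 0.05. Erythroid genes summed to between 553 and 940 in StCo and between 1058 and 1175 in StHi, and ependymal genes to between 829 and 1329 in StCo and to 1090, 2326 and 1888 in StHi. With limma 0 of the 2 erythroid genes tested and 1 of the 8 ependymal genes, Rsph1, passed. At an unadjusted P-value under 0.05 there were 0 and 2. Rsph1 made up 291, 738 and 614 of the ependymal sums in StHi. Meningeal sums overlapped (2630 to 7783 in StCo, 3594 to 8547 in StHi), as did endothelial sums (7156 to 9154 and 7613 to 9435). The part of these cells in the values of the lines was not tested. With edgeR, which called 2.76% of all genes, 0 of the 10 passed. With DESeq2, which called 4.66% of all genes, Ttr passed at -5.09 (adjusted P-value 0.0184) and Slc4a5 at -3.07 (0.0461). The lines did not overlap for Cldn2, with StCo at most at 6.40 and StHi at least at 6.49, a gap smaller than 1 fragment. With log2 Ttr as a covariate, Tmem72 was the 1 of the 9 other genes that passed, at 3.06 ± 0.57 (adjusted P-value 0.0124), where 1.28% of all genes did, but 3 of the 4 StCo samples had less Ttr than any other sample. The interaction of line and region was passed by 0 of the 10 genes with limma, where 0.532% of all genes passed it, and by 0 with edgeR (0.657% of all genes) and with DESeq2 (1.82%). At an unadjusted P-value under 0.05 the interaction had 0 of the 10 with limma and 9.56% of all genes.

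Set against Ttr, Sostdc1 was the 1 gene of the 9 whose lines did not overlap in the Ce, and it was singled out after its values were seen. Sostdc1 had 1.66, 4.84, 1.83 and 4.80 normalized counts per 1000 of Ttr in CeCo and 21.2, 8.06, 8.45 and 10.3 in CeHi. Every CeHi sample was thus above every CeCo sample. The share of all genes whose ratio to Ttr parts the lines in this way is not given here. In a fit of the Ce alone with log2 Ttr as a covariate, also chosen after the values were seen, the log2 difference of CeCo minus CeHi was -1.77 ± 0.25 (SE, adjusted P-value 0.00284), with an interval from -2.32 to -1.21, and Sostdc1 was the 1 of the 9 genes that passed, where 5.25% of all genes did. Over the fits that left out each of the 8 Ce samples in turn the value was -2.02 to -1.60 and the largest adjusted P-value was 0.0246. In the fit of all 15 samples with the same covariate it was -1.71 ± 0.48 (adjusted P-value 0.0561), and 0 of the 9 genes passed where 5.63% of all genes did. The value of CeCo 1 rests on 5 fragments of Sostdc1.

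For the other 8 genes the ratios to Ttr overlapped between the lines. Folr1 per 1000 of Ttr was 5.07 to 7.39 in the 6 Ce samples with at least 11393 normalized counts of Ttr, and it was 16.5 in CeCo 1 and 31.2 in CeHi 0. Kl per 1000 of Ttr had a median of 26.9 in CeCo and 28.0 in CeHi. Prlr had medians of 7.68 and 8.11. In the log2 regression on Ttr over the 8 Ce samples the slope was 0.89 for Tmem72, the steepest, and 0.34 for Slc4a5, the flattest, so that Slc4a5 fell least where Ttr fell.

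**Figure D4:**
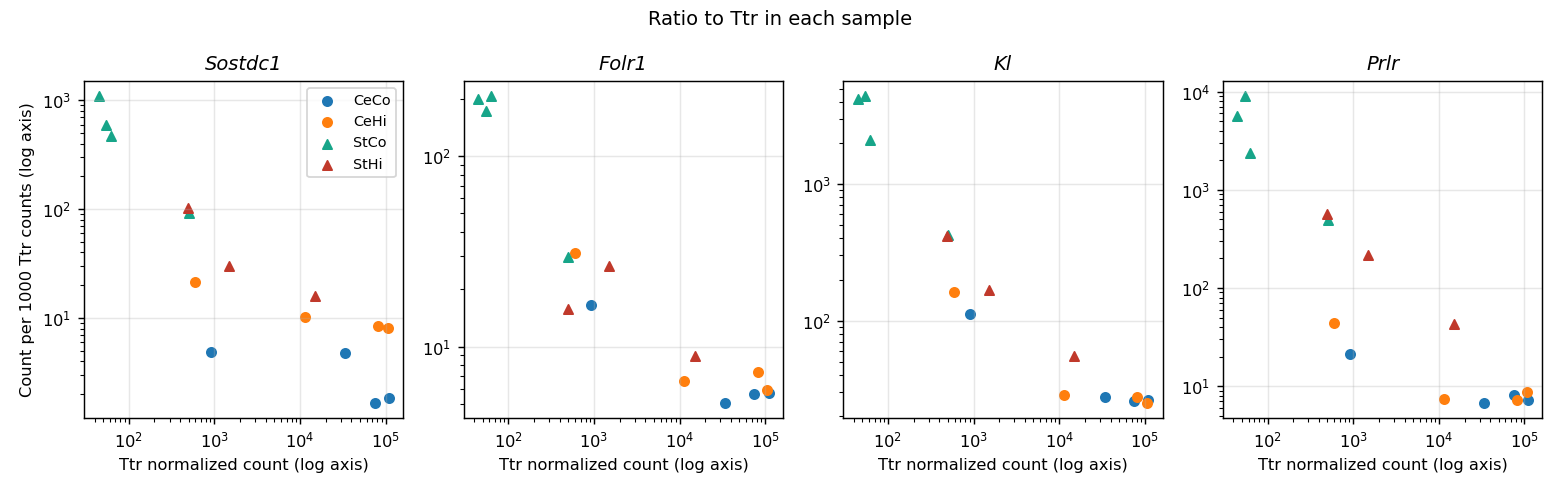
Normalized count of Sostdc1, Folr1, Kl and Prlr per 1000 normalized counts of Ttr against Ttr in each sample, on log axes. For Sostdc1 the CeCo samples lie at 1.66 to 4.84 and the CeHi samples at 8.06 to 21.2, whereas for Folr1, Kl and Prlr the lines overlap.

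Many other genes of the plexus epithelium varied with Ttr in the Ce, and fewer in the St. Of a list of 26 such genes, 24 were tested, and r with Ttr over the 8 Ce samples was over 0.9 for 15 of them, with a median of 0.937. In the St r was over 0.9 for 3 of the 24, with a median of 0.660 and a lowest of -0.346. Between the regions 17 of the 24 were higher and 1 lower in the Ce, where 40.6% of all genes were higher and 39.6% lower. Between the lines 0 of the 24 passed with limma in the Ce, where 5.94% of all genes did, and 0 in the St, where 2.66% did, with 0 and 1 at an unadjusted P-value under 0.05. The sum of the list ranged from 16494 to 100407 normalized counts in the Ce. Among its 4 most abundant genes, Enpp2, which encodes the lysophospholipase autotaxin, ranged from 6166 to 72473 in the Ce, Igf2, an insulin-like growth factor, from 2971 to 8686, and Sulf1, a sulfatase of heparan sulfate, from 1156 to 2713. Slc29a4, a monoamine transporter, ranged from 2124 to 2591.

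The 10 genes whose deviations from their group means were most like the mean of the 10 plexus genes over the 15 samples were Kcne2 (r = 0.992), F5 (0.974), 1500015O10Rik (0.968), Oca2 (0.967), Steap1 (0.963), Ace (0.956), Cldn1 (0.956), Enpp2 (0.95), Trpv4 (0.95) and Gm606 (0.949). Of these, 7 were on the list of other plexus genes, and Oca2, Cldn1 and Gm606 were not. Of the 15203 genes compared, 28 had r over 0.9. Kcne2, a potassium channel subunit, had 369, 9.81, 532 and 137 normalized counts in CeCo and 13.5, 867, 852 and 91.9 in CeHi. Per 1000 of Ttr it lay between 4.04 and 10.6 in CeCo and between 8.07 and 22.7 in CeHi, so that the lines overlapped through CeCo 1.

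The sums of lists of other cells and functions varied less. In the Ce the sum of the 10 plexus genes differed 103-fold between the highest and the lowest sample, most of it Ttr, and the sum of the other 9 genes differed 16.2-fold. The sum of the genes of ion and water transport that the plexus shares with other brain cells differed 1.12-fold. None of the 15 had r over 0.9 with Ttr over the 8 Ce samples, although Slc4a2, an anion exchanger, had 0.871 (rho 0.929), and without CeCo 1 and CeHi 0 Slc12a2 (0.929), Slc4a10 (0.924) and Slc4a2 (0.915) were over 0.9. The list also held Atp1b1, a subunit of the sodium pump, Slc4a4, a bicarbonate cotransporter, and Car2, a carbonic anhydrase. Between the regions 8 of these 15 were higher and 2 lower in the Ce, where 40.6% of all genes were higher and 39.6% lower. Of 30 carriers, receptors and partners of the ligands that the 10 genes handle, 24 were tested, with 6 higher and 12 lower in the Ce beside the same shares of all genes, and the sum differed 1.08-fold among Ce samples. Cldn1, a claudin of this list, nevertheless ranged from 15.1 to 461 normalized counts in the Ce. Thra, a thyroid hormone receptor, was lower in the Ce, with 9085 to 12495 normalized counts against 17715 to 19863 in the St. Fgfr1, the FGF receptor that Klotho joins, was higher in the Ce, with 6679 to 8509 against 2826 to 3336.

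**Figure D5:**
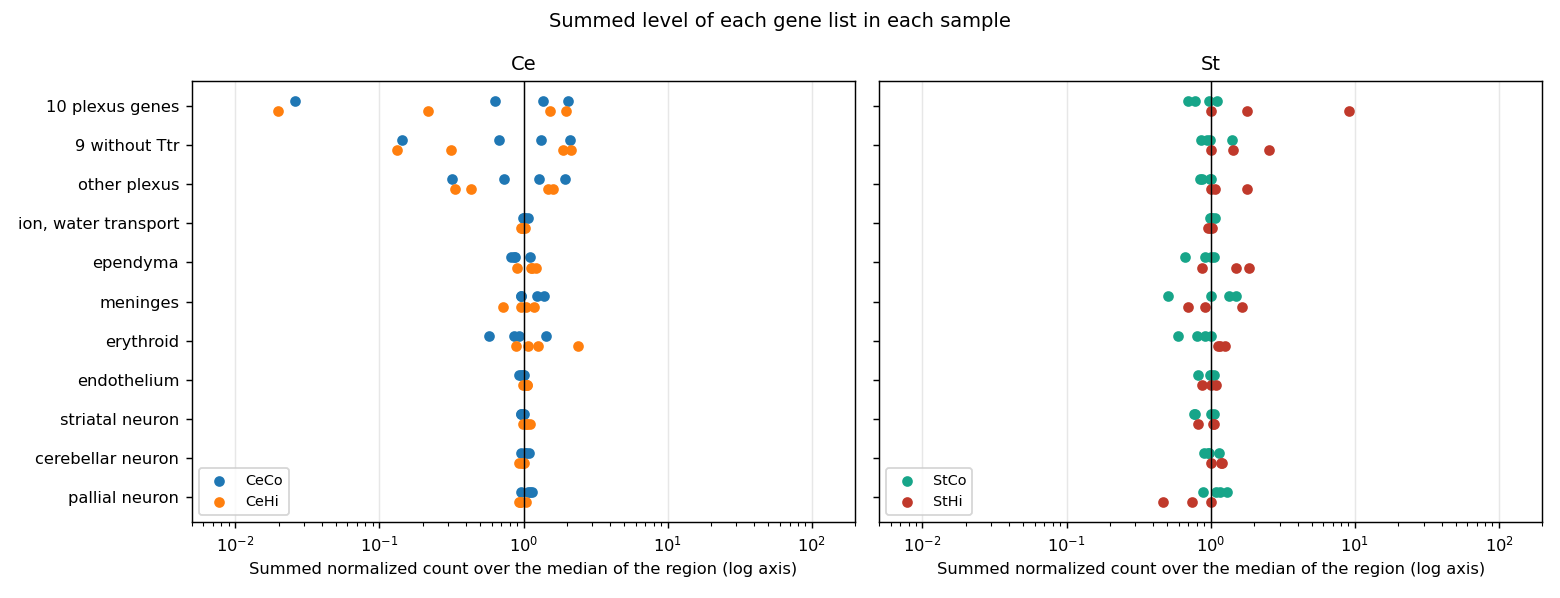
Summed normalized count of each gene list in each sample divided by the median of its region, on a log axis, for the Ce and the St. The sum of the 10 plexus genes differs 103-fold among Ce samples, that of the 9 without Ttr 16.2-fold and that of the other plexus genes 6.09-fold, whereas the cerebellar and striatal neuron and the endothelial lists differ 1.17-fold or less in the Ce. In the St the meningeal list differs 3.25-fold, more than the 9 without Ttr (2.94-fold).

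Markers of tissues that border the plexus were followed in the same samples. Ependymal genes, of which 8 of 10 were measured, summed to between 1303 and 1946 normalized counts in the Ce, and the highest r with Ttr in the Ce was 0.496, for Foxj1. In the St the ependymal sum was between 829 and 2326. Meningeal fibroblast genes summed to between 23127 and 44799 in the Ce, with r of at most 0.577, and to between 2630 and 8547 in the St. All 12 of these genes were higher in the Ce, where 40.6% of all genes were. In the Ce, erythroid genes, of which 3 of 5 were measured, summed to between 884 and 3677, and endothelial genes to between 7631 and 8737. The pyramidal neuron genes summed to between 30852 and 38219 in the Ce, and among them Tbr1 had 1857 to 4697 in the St and 28.6 to 45.4 in the Ce. The part of these cells in the values of the 10 plexus genes was not tested.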

How the data were processed

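RNA-seq of 15 mouse samples was used, 8 from cerebellum (Ce) and 7 from striatum (St), and groups came from the labels alone. The authors aligned paired-end reads to GRCm38 with TopHat2, and with Cuffnorm 2.2.1 they divided the fragment count of a gene by a factor for the size of the library. The deposited signal holds these normalized counts. No division by length was made, despite the name of the table. In every sample 99.4% to 99.7% of values between 0.3 and 60 lay within 0.05 fragments of a whole multiple of 1 step, the worth of a fragment. Libraries summed to 38499264 to 43669012 normalized counts, or 32909390 to 47485535 fragments. The StHi sample that the authors had removed was not used here. A level of 3 fragments is at the floor, and floors and steps speak of counting error alone.

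The filter kept 15213 of 26628 genes, each with a CPM of 1 or more in at least 3 samples. After scaling by trimmed mean of M-values, log2(normalized count + 1) entered limma 3.58.1 (R 4.3.3, trend and robust options) with a mean for each of the 4 groups and Benjamini-Hochberg adjustment over the 15213 genes. On this scale the change of low genes is understated. The contrasts were Ce minus St, CeCo minus CeHi, StCo minus StHi and the interaction. Alternatives were edgeR 4.0.16 and DESeq2 1.42.0 on recovered fragments, another pseudocount, filter, scaling and moderation, sample weights, a replicate block, single regions, log2 Ttr as a covariate and each sample left out. On simulated data with 15213 genes, 200 genes were changed by 2 on the log2 scale in CeCo minus CeHi. They were recovered to 100%, and 6.1% of calls were false. This recovery cannot be carried over to the choroid plexus genes, whose spread within groups had a median of 1.84 against 0.124 over all genes. Their SE in CeCo minus CeHi ran from 0.77 for Clic6 to 1.97 for Ttr, so that a change of 2 in them could be missed.

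The 10 genes and the other lists were chosen with earlier results of these data known. All 10 genes are named, of the other lists some of the 4 with the highest mean over all samples, and the 10 genes most like the plexus genes. Rsph1, Prl, Igfbp2, Car12, Foxj1, Slc4a2, Slc4a10, Slc12a2, Otx2 and Tbr1 were named after their values were seen. Gene positions are those of GENCODE in GRCm38.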

Additional observations from a re-analysis of the deposited data

Results flagged for a closer look

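In StCo, the level of Ttr in StCo 0 was 504 normalized counts where the other 3 samples had 44.5, 54.6 and 62.2, a gap of 0.962 of the range of the group, above Dixon's 95% critical value for 4 samples. It was the 1 such sample among 30 groups of 4 samples tested (10 genes in 3 groups), and chance gives about 1 in 20. In the same sample Folr1 had 14.8 normalized counts against 8.90 to 12.8, Kl 212 against 131 to 240, and Cldn2 3.70 against 3.96 to 6.40, so that these 3 genes did not stand apart with Ttr. The cause was not tested.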

How the results depend on the processing

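Of the 10 genes, 5 differed between regions as reported, 3 to 7 without 1 sample, 4 to 5 under the other limma settings without a covariate, 7 with edgeR and 8 with DESeq2, and the cause of the difference between tools was not tested. The labels' numbers were tested as pairs: residuals correlated at 0.171 to 0.278 for CeCo with StCo, each sample best with its own number, but at -0.0751 to 0.0513 for CeHi with StHi, so the numbers paired Ce with St by this measure in the Co line and not in the Hi line, and no source used here says that they mark mice. The replicate block gave 5 genes between regions and 0 in the other contrasts. Between lines in the Ce the count was 0 except 1 with the Ce alone and log2 Ttr as a covariate, and in the St 0 except 2 with DESeq2 and 1 with the covariate. The median spread was 1.52 to 1.93 without 1 sample. Over all genes, the line calls in the Ce were 903, with 1389 by DESeq2, those in the St 405, with 709 by DESeq2, 740 with weights and 194 with the covariate, and the interaction calls 81, with 277, 182 and 31. Fits without 1 sample gave 613 to 953, 269 to 468 and 46 to 117.

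Signs turned as follows, most of them with the covariate, where values as large as 2.91 (Folr1, Ce minus St) turned. For Ce minus St, Prlr had 0.26 with edgeR and 0.25 with DESeq2. For CeCo minus CeHi, edgeR and DESeq2 gave Folr1 -0.094 and -0.10, Clic6 -0.14 and -0.14 and Cldn2 -0.094 and -0.10, and weights gave Tmem72 0.30. Weights gave Sostdc1 an interaction of 0.62. With log2 Ttr as a covariate, Ce minus St was -0.68 for Folr1, -1.51 for Kl, -2.68 for Sostdc1, -2.14 for Tmem72 and -1.09 for Aqp1. CeCo minus CeHi was -0.26 for Folr1, -0.14 for Clic6, -0.21 for Cldn2 and -0.093 for Prlr, and -0.28, -0.19, -0.22 and -0.17 with the Ce alone. StCo minus StHi was 1.5 for Folr1, 1.72 for Kl, 1.13 for Clic6, 2.01 for Sostdc1, 0.071 for Cldn2, 2.04 for Prlr, 3.06 for Tmem72 and 2.22 for Aqp1. The interaction was -1.76 for Folr1, -1.64 for Kl, -1.27 for Clic6, -0.28 for Cldn2, -2.13 for Prlr, -3.65 for Tmem72 and -1.78 for Aqp1.

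Without 1 sample, CeCo minus CeHi ranged from -1.04 to 2.07 for Ttr, -0.90 to 1.22 for Folr1, -0.54 to 1.4 for Kl, -0.55 to 0.57 for Clic6, -0.59 to 0.85 for Cldn2, -0.72 to 1.35 for Prlr, -1.43 to 1.38 for Tmem72 and -0.38 to 1.77 for Aqp1. StCo minus StHi ranged from -1.69 to 0.35 for Tmem72 and from -1.12 to 0.13 for Aqp1. The interaction ranged from -0.17 to 0.95 for Clic6, -1.51 to 0.95 for Sostdc1, -0.14 to 1.93 for Prlr and -0.72 to 2.08 for Tmem72. Depth limits Tmem72, Aqp1 and Sostdc1 in the Ttr-poor Ce samples and Cldn2 and Slc4a5 in the StCo samples, which rest on 3 to 15 fragments. It also limits Folr1 (9 to 14 fragments), Aqp1 (9 to 17) and Tmem72 (7 to 20) in StCo. In StHi 0, Folr1 and Aqp1 rest on 6 fragments each, Cldn2 on 5, and Slc4a5 and Tmem72 on 4 each.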

Other observations

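Of the ependymal genes, Rsph1, a gene of the radial spoke of motile cilia, was lower in Co than in Hi in both regions. Its log2(fold change) was -1.36 ± 0.31 (SE, limma, adjusted P-value 0.0183) for CeCo minus CeHi and -1.81 ± 0.34 (0.00827) for StCo minus StHi. It was the 1 of 8 ependymal genes that passed between the lines in either region. Of all genes tested, 5.94% passed in the Ce and 2.66% in the St. Rsph1 was singled out after its values were seen. Its r with Ttr was 0.002 over the 8 Ce samples and 0.757 over the 7 St samples, the highest of the ependymal genes in the St, and 0.591 without StCo 1 and StHi 2.

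Prl, which encodes prolactin, the ligand of Prlr, was below the filter and was counted at 62.4 normalized counts in CeCo 0 and 13.5 in CeHi 0, where every other sample had at most 2.47. Igfbp2, a carrier of insulin-like growth factors, followed Ttr in the Ce (r = 0.969, 700 to 3505 normalized counts) and not in the St (r = -0.199, 558 to 910). Car12, a carbonic anhydrase, ranged from 46.4 to 1091 in the Ce with Ttr (r = 0.969) and had 1471 to 2398 in every St sample.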
